A study of Mus musculus with 16 samples.

Results

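The genes described here are 10 that make and load lipoproteins: the apolipoproteins Apoa1, Apoa2, Apoa4, Apoa5, Apob, Apoc2, Apoc3, Apoe and Apom, and the lipid transfer protein Mttp. They were chosen by gene name among the non-control spots of each array, which gave 10 genes with 16 probes, out of 18476 genes tested. Liver RNA from male C57BL/6 mice aged 3 months was hybridised to 16 arrays, 1 sample to each. There were 4 groups of 4 arrays: GR knockout mice given dexamethasone, GR knockout mice without treatment, wild-type (WT) mice given dexamethasone, and WT mice without treatment. Dexamethasone, a synthetic glucocorticoid, acts through the glucocorticoid receptor GR (gene Nr3c1), which the labels describe as knocked out in liver. Titles of knockout samples include PBS, and 1 protocol speaks of vehicle where the sample sources say no treatment. The labels name no Cre line, deleted exon, or dexamethasone dose, route or duration. Separate mice per array are implied but not stated, so the p-values measure the spread between these samples.

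Hepatocytes secrete very-low-density lipoproteins, in which a single apolipoprotein B molecule is loaded with triglyceride by the microsomal triglyceride transfer protein, Mttp, as it enters the endoplasmic reticulum. They also secrete apolipoprotein A-I, the main protein of high-density lipoprotein (HDL), and smaller apolipoproteins that move between particles and set how fast lipoprotein lipase clears their triglyceride. Glucocorticoids are known to change hepatic lipid synthesis and secretion, and Apoa1, Apoc3, Apoa4 and Apoa5 lie next to each other in 1 gene cluster.

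Levels are log2 signals relative to each array's 75th percentile, so that 0 is the 75th percentile of that array. A gene was called when limma's adjusted p was under 0.05 over all 18476 genes. Levels of different probes are not compared with each other, because each probe binds with its own strength. Nr3c1 checked the labels: it lay between -0.11 and 0.44 in dexamethasone-treated knockout, between 0.24 and 0.57 in untreated knockout, between 1.92 and 2.26 in treated WT and between 2.13 and 2.52 in untreated WT livers. It fell by 1.96 in treated knockout against treated WT livers (limma adjusted p = 6.3e-06). The difference between the untreated genotypes was -1.99 (adjusted p = 1.71e-05). These values are of the probe that stands for the gene. Probes A_51_P355693 and A_52_P63106 were also called lower in both comparisons. Probe A_52_P254174 was lower but not called, at -0.97 with dexamethasone (limma adjusted p = 0.197) and -1.62 without it (adjusted p = 0.103). The 75th percentile signal was 524 to 691 on 14 arrays, but 309 on untreated knockout array 1 and 400 on untreated WT array 4. The mean correlation, across tested genes without missing values, with the rest of its group was 0.963 for untreated knockout array 1. That was below the value of each of the other 15 arrays. Each slide may have held 1 group only, so an effect of the slide and an effect of the group cannot be told apart. Hepatocyte markers matched the tissue label: 4 of 6 listed were on the array, and all 4 were above background on every array. In bulk liver, fewer cells of a type and less RNA per cell cannot be told apart.

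The Apoa1 probe and both Apoc3 probes are shown because the results turn on them: Apoa1 was called, and its neighbour Apoc3 did not pass the test. The files place the Apoa1 probe on the plus strand of build mm7 at chr9:46187961-46188020. The Apoc3 probes lie on the minus strand at chr9:46191403-46191462 (A_52_P574306) and chr9:46191393-46191452 (A_51_P310629). The files do not annotate exons or UTRs for them. All are printed 5′ to 3′, and capitals mark the 50 bases that the Apoc3 probes share, so these 2 probes are not independent readings.
Apoa1 A_51_P408082: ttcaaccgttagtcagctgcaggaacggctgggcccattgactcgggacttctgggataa
Apoc3 A_52_P574306: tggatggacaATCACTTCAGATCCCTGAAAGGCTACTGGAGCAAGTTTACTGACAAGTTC
Apoc3 A_51_P310629: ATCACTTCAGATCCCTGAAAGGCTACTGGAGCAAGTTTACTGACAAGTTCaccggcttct

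Apoa1 was lower in GR knockout livers than in WT livers, with and without dexamethasone. It was the only one of the 9 measurable genes called in more than 1 comparison. The level on arrays 1 to 4 was 8.37, 8.20, 7.95 and 8.41 in dexamethasone-treated knockout livers, against 8.94, 8.99, 9.20 and 9.0 in treated WT livers. Without treatment it was 8.11, 8.02, 8.04 and 7.45 in knockout livers, against 8.83, 8.66, 8.45 and 9.20 in WT livers. In both comparisons every knockout array lay below every WT array, as for 11.8% of all genes with dexamethasone and 3.66% without it, and untreated knockout array 4 was the lowest of the 16. Apoa1 fell by 0.80 with dexamethasone (1.74-fold lower, SE 0.18, n = 4 per group, limma adjusted p = 0.00609). It fell by 0.88 without it (1.84-fold lower, SE 0.18, adjusted p = 0.0202).

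The first of these calls held in all 30 alternative settings, with a difference between -0.92 and -0.70. The second was lost without untreated WT array 2 (-0.92, adjusted p = 0.0504), under normexp background correction (-0.88, adjusted p = 0.0555) and when only the groups compared entered the fit (adjusted p = 0.113). Without the knockout and WT arrays of low 75th percentile it was -0.81 (adjusted p = 0.0394). Apoa1 has 10 spots on each array, none of them saturated, and their SD within an array was 0.017 to 0.17, which is technical spread only.

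Dexamethasone itself did not move Apoa1 past the threshold. The treated minus untreated difference was 0.33 in knockout (SE 0.18, 95% interval -0.06 to 0.71, adjusted p = 0.389) and 0.25 in WT livers (SE 0.18, interval -0.14 to 0.63, adjusted p = 0.414). These responses differed by 0.08 between the genotypes (interval -0.46 to 0.62, adjusted p = 0.945). By group mean the order of the levels was treated WT at 9.03 ± 0.12, untreated WT at 8.78 ± 0.32, treated knockout at 8.23 ± 0.21 and untreated knockout at 7.91 ± 0.31 (SD, n = 4 each). The neighbours within a genotype overlapped in this order, and the step between the genotypes did not.

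**Figure D1:**
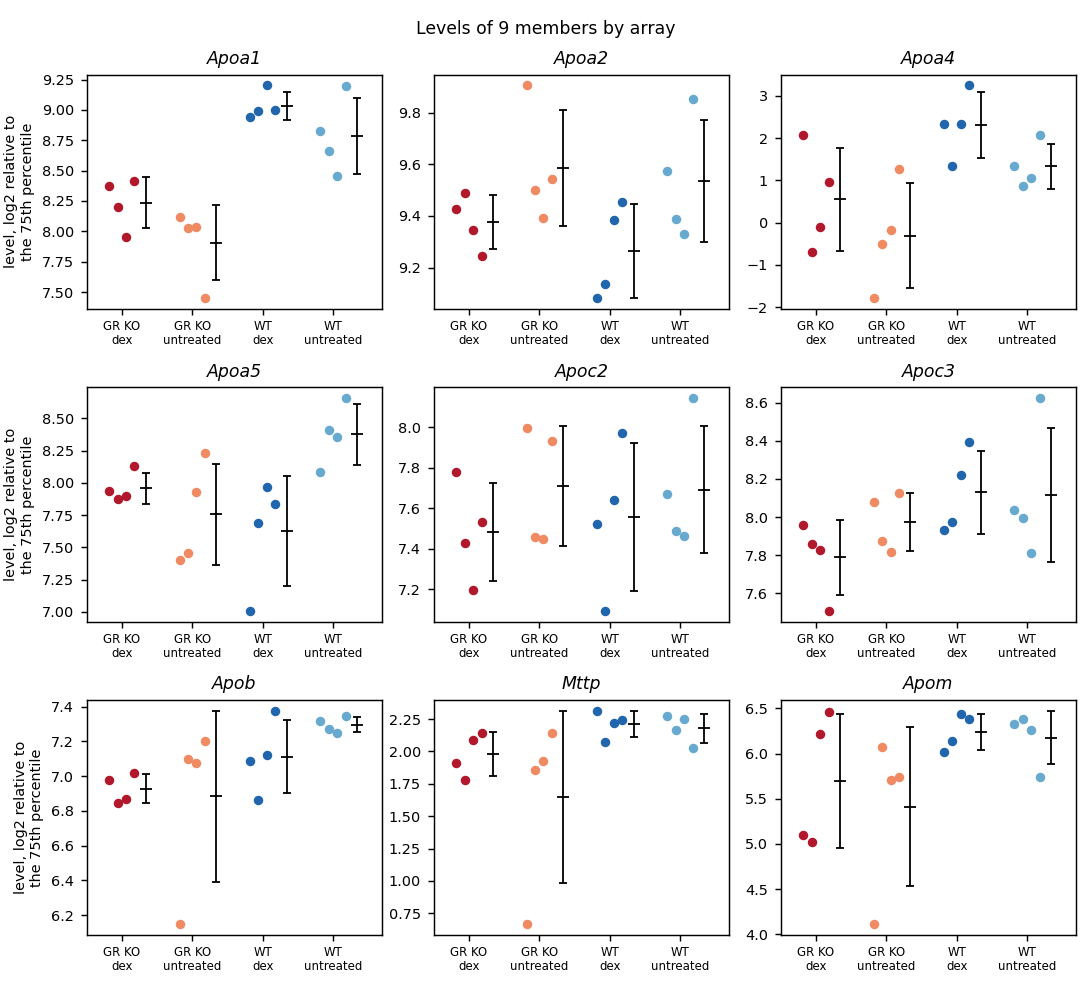
Level of 9 genes (log2 relative to each array's 75th percentile) on every array, with the 4 groups along the horizontal axis, each array a point and the black mark the mean ± SD of 4 arrays. Apoa1 lies between 7.45 and 8.41 on the 8 knockout arrays and between 8.45 and 9.20 on the 8 WT arrays, while untreated knockout array 1 is the lowest point for Apoa4, Apob, Mttp and Apom.

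Apoa1 was also set against 3 other secreted apolipoproteins on the same array, which removes the array's scaling. These ratios were added after the data had been seen, so they are not independent support for the Apoa1 calls. The 3 genes differed between the genotypes by -0.34 to 0.11, uncalled, so a lower ratio partly repeats the Apoa1 difference. Other members would give other ratios. Apoa4 differed by -1.76 with dexamethasone and -1.64 without it, more than Apoa1, and Apom by -0.54 and -0.77. Ratios to Apoa4 and Apom were not taken. Apoa1 less Apoa2, the second protein of HDL, was -1.14 ± 0.25 in treated knockout livers and -0.23 ± 0.15 in treated WT livers. Without treatment it was -1.68 ± 0.33 in knockout livers and -0.75 ± 0.09 in WT livers (SD, n = 4 each). The ratio was lower on all knockout arrays in both comparisons (exact two-sided permutation p = 0.0286, the smallest that 4 against 4 arrays allow, adjusted p = 0.0343 over 6 tests).

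Against Apoc2 the ratio was lower in knockout by 0.72 with dexamethasone (difference -0.72) and by 0.90 without it (difference -0.90), again with no overlap and the same exact p. Against Apoc3 it was -0.07 ± 0.41 in untreated knockout and 0.67 ± 0.09 in untreated WT livers (exact p = 0.0286). With dexamethasone it was 0.45 ± 0.33 in knockout and 0.90 ± 0.20 in WT livers, and the groups overlapped (exact p = 0.0571). Apoa1 therefore differed unequally from Apoa2 and Apoc2 in both comparisons, and from Apoc3 in untreated livers. A ratio does not show which of its probes moved.

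**Figure D2:**
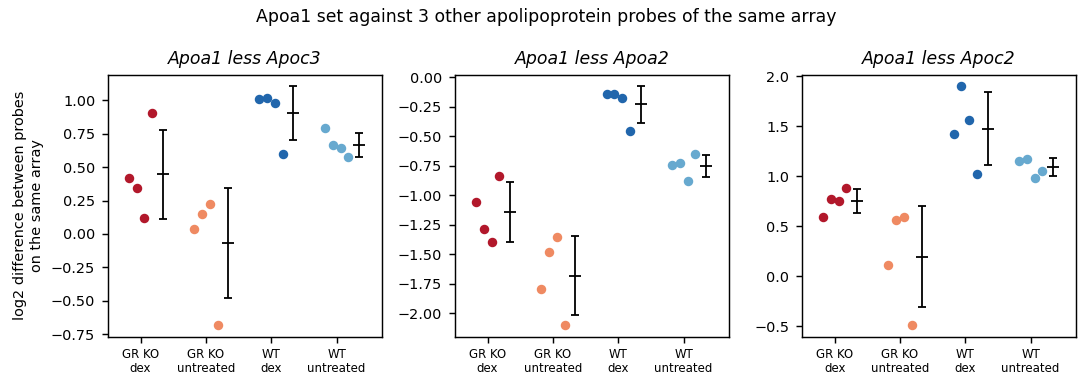
Level of Apoa1 less that of Apoc3, Apoa2 or Apoc2 on the same array (log2), with a point per array and the mean ± SD of 4 arrays per group. Knockout arrays lie below WT arrays of the same treatment in all panels except Apoc3 with dexamethasone, where the highest knockout value, 0.91, lies above the lowest WT value, 0.60.

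Apoa5 raises the activity of lipoprotein lipase and so lowers plasma triglyceride. In WT livers it fell with dexamethasone. Probe A_51_P259930, which stands for the gene, read 7.01, 7.69, 7.97 and 7.83 in treated WT livers, against 8.08, 8.41, 8.36 and 8.66 in untreated WT livers. All treated arrays lay below all untreated ones, as for 12.8% of all genes, and treated array 1 was far below the rest of its group. Apoa5 fell by 0.75 (1.68-fold lower, SE 0.22, n = 4 per group, limma adjusted p = 0.0374). The second probe, A_52_P292404, was lower on every treated WT array too, but did not pass the test over probes (-0.55, SE 0.23, adjusted p = 0.133).

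This call was less steady than that of Apoa1. It was lost without treated WT array 1 (-0.55, adjusted p = 0.121) or array 2 (-0.77, adjusted p = 0.0639). It was also lost without untreated WT array 2 (-0.74, adjusted p = 0.0916), array 3 (-0.76, adjusted p = 0.0706) or array 4 (-0.66, adjusted p = 0.0905). Under normexp it was -0.72 (adjusted p = 0.113), with the mean of both probes -0.65 (adjusted p = 0.0708), and its adjusted p was 0.0697 with no filter on dim probes and 0.0546 when only the groups compared entered the fit. In knockout livers Apoa5 read 7.94, 7.87, 7.89 and 8.13 with dexamethasone and 7.41, 7.46, 7.93 and 8.23 without it. The groups overlapped there, and the difference was 0.20 (interval -0.27 to 0.67, adjusted p = 0.708). The response in knockout minus that in WT was 0.95 (SE 0.31, adjusted p = 0.104), which missed the threshold over all genes, so a different response was not shown. It was called with the replicate number as a block (adjusted p = 0.0321) and with array weights (0.97, adjusted p = 0.045).

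Between the genotypes Apoa5 was not called. The knockout minus WT difference was 0.33 with dexamethasone (interval -0.13 to 0.80, adjusted p = 0.301) and -0.62 without it (interval -1.09 to -0.15, adjusted p = 0.138). By group mean, untreated WT livers were highest at 8.38 ± 0.24, followed by treated knockout at 7.96 ± 0.12, untreated knockout at 7.76 ± 0.39 and treated WT livers at 7.62 ± 0.43 (SD, n = 4 each). Every group overlapped its neighbour in this order, and the last 3 all overlapped each other.

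Apoa4, carried on HDL and on chylomicrons, had the largest SD between arrays of the 9 genes in every group, 0.53 to 1.25. It read 2.07, -0.69, -0.11 and 0.95 in treated knockout livers, against 2.34, 1.33, 2.34 and 3.25 in treated WT livers. Without treatment it read -1.78, -0.50, -0.18 and 1.26 in knockout livers, against 1.35, 0.86, 1.06 and 2.06 in WT livers. In each pair 1 knockout array reached into the WT range, array 1 with dexamethasone and array 4 without it. The mean difference was -1.76 with dexamethasone (3.39-fold, SE 0.64, limma adjusted p = 0.0615) and -1.64 without it (3.11-fold, SE 0.64, adjusted p = 0.175), and neither was called.

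The treated difference of Apoa4 sat close to the threshold. It was called without treated knockout array 1 (-2.27, adjusted p = 0.0226), without treated WT array 2 (-2.09, adjusted p = 0.0478), and without untreated knockout array 1 or 4 (-1.76, adjusted p = 0.0341 and 0.0386). With the replicate block its adjusted p was 0.0316. Without untreated knockout array 1 the untreated difference was -1.14 (adjusted p = 0.351). Dexamethasone gave 0.86 in knockout (interval -0.51 to 2.22) and 0.98 in WT livers (interval -0.38 to 2.35), neither called, and an interval this wide does not show that the gene stayed put.

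Apoc3, which slows lipoprotein lipase and the uptake of remnants, lies between Apoa1 and Apoa4. It read 7.96, 7.86, 7.83 and 7.51 in treated knockout livers, against 7.93, 7.98, 8.22 and 8.39 in treated WT livers. Only the lowest treated WT value lay within the knockout range. The difference was -0.34 (SE 0.17, interval -0.72 to 0.03, limma adjusted p = 0.178), and the second probe gave -0.30 (adjusted p = 0.251). Without treatment it was -0.14 (interval -0.51 to 0.23, adjusted p = 0.716). The response to dexamethasone was -0.19 in knockout (interval -0.56 to 0.19) and 0.01 in WT livers (interval -0.36 to 0.39).

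The sequence just before the RefSeq start sites of Apoa1, Apoa4 and Apoa5 is shown because these are the genes of the cluster that were called or came close to it. RefSeq's table on GRCm38.p6 held 13 start sites for 9 of the 10 genes, and the 250 bases before each were searched on both strands. Capitals mark TGTTCT, a single arm of the palindromic glucocorticoid response element, and TATAAA, the TATA box, each on either strand. The windows, all on the plus strand, are chr9:46228380-46228629 for Apoa1, chr9:46240594-46240843 for Apoa4 and chr9:46268358-46268607 for the first of the Apoa5 starts.
Apoa1: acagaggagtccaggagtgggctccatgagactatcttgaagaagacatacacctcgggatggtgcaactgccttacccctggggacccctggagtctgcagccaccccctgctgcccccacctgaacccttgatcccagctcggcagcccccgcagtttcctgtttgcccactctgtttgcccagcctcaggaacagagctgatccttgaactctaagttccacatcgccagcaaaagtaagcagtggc
Apoa4: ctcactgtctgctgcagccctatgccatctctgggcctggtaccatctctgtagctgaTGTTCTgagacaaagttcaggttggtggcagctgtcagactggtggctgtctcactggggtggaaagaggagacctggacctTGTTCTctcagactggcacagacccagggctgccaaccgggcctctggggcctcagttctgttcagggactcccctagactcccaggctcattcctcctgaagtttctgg
Apoa5: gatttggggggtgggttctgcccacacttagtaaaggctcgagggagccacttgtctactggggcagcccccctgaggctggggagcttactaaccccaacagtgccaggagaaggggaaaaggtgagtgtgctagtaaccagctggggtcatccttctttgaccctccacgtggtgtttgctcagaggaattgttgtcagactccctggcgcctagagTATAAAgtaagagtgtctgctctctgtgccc

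In these windows Apoa4 held TGTTCT at positions -192 and -110 from its start, Apoa5 held a TATA box at position -31, and Apoa1 held neither. TGTTCT stood in 4 of the 13 windows, those of Mttp, Apoc2, Apoa4 and 1 Apoe start, against 16.1% of all 32851 windows in the table. The TATA box stood in 5 of 13, against 12.4% of all. The C/EBP motif TTGCNNAA stood in 2 of 13, against 9.56% of all. The full glucocorticoid response element (AGAACA and TGTTCT with 3 bases between), the direct repeat that nuclear receptors bind (AGGTCA repeated after 1 base) and the HNF1 motif (GTTAAT and ATTAAC with 1 base between) stood in none of the 13, against 3, 11 and 3 windows in the whole table. Several windows belong to 1 gene and overlap, and a match is a run of letters, not a binding site.

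The other carriers of HDL and of triglyceride-rich particles did not pass the test in any comparison. Apoa2 was at 9.43, 9.49, 9.35 and 9.25 in treated knockout livers, 9.91, 9.5, 9.39 and 9.54 in untreated knockout livers, 9.08, 9.14, 9.38 and 9.45 in treated WT livers, and 9.57, 9.39, 9.33 and 9.85 in untreated WT livers. All 4 groups overlapped, and both arrays with a low 75th percentile gave the highest value of their group. The knockout minus WT difference was 0.11 with dexamethasone (interval -0.20 to 0.43, limma adjusted p = 0.632) and 0.05 without it (interval -0.27 to 0.37, adjusted p = 0.898). The Apoa2 signal reached 438040, near the range of the saturated Apoe spots described next, and whether it was compressed was not tested.

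Apoc2 is the cofactor that lipoprotein lipase needs. It ranged from 7.19 to 7.78 in treated knockout, 7.45 to 8.0 in untreated knockout, 7.09 to 7.97 in treated WT and 7.46 to 8.14 in untreated WT livers, with medians of 7.48, 7.70, 7.58 and 7.58. The ranges overlapped throughout. Its knockout minus WT difference was -0.07 with dexamethasone (interval -0.53 to 0.38) and 0.02 without it (interval -0.44 to 0.47).

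Apoe, the ligand by which the liver takes up remnants, could not be compared. Its single probe is printed in 10 spots per array, and 139 of the 160 spots were saturated, with at least 2 on every array. Their signals lay between 560848 and 787914 on all 16 arrays, whereas the Apoa1 spots ran from 82457 to 344026. No fold is given for Apoe, and its level after scaling mirrors the array's own 75th percentile (10.95 on untreated knockout array 1, the dimmest array, against at most 10.17 on the other 3 of that group). A true difference between the groups would not be seen at this brightness.

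**Figure D3:**
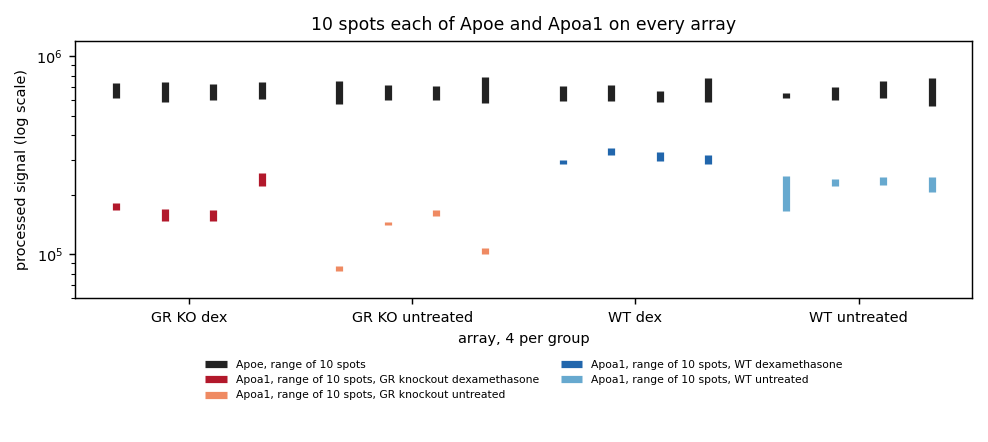
Processed signal (log scale) of the 10 spots of Apoe (black) and Apoa1 (coloured by group) on each array, drawn as the range from the lowest to the highest spot. Apoe stays between 560848 and 787914 on every array, while Apoa1 moves between 82457 and 344026.

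Apob, the structural protein of very-low-density lipoprotein, was read by 5 probes between chr12:7954595-7956804 and chr12:7972307-7972366 of build mm7, all on the plus strand. The brightest, A_52_P441070 at the 3′ end, read 6.98, 6.85, 6.87 and 7.02 in treated knockout livers, against 7.09, 6.86, 7.12 and 7.38 in treated WT livers. Without treatment it read 6.15, 7.10, 7.08 and 7.20 in knockout livers, against 7.32, 7.27, 7.25 and 7.35 in WT livers. The untreated groups did not overlap, a separation seen in that direction for 3.66% of all genes. The untreated difference of this probe was -0.41 (SE 0.19, limma adjusted p = 0.251). Without untreated knockout array 1 it was -0.17 (adjusted p = 0.456), a value that holds for this probe only. With dexamethasone it was -0.18 (interval -0.59 to 0.22, adjusted p = 0.533).

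The 5 probes disagreed on untreated knockout array 1. The last probe less the second (A_52_P441070 less A_51_P413088) was -0.04 on that array and 1.47 to 2.71 on the other 15 arrays. The second probe stood at 6.19 there, against 4.46 to 4.51 on the other 3 arrays of its group, while the last stood at 6.15, against 7.08 to 7.20. RNA quality was not measured apart from such signs, and its part in the untreated knockout values was not tested. None of the 5 probes was called in any comparison. Over all probes, 2.79% were called for dexamethasone in knockout, 11.5% for dexamethasone in WT, 20.7% and 2.41% for knockout against WT with and without it, and 3.58% for the interaction. All 5 Apob probes gave a negative knockout minus WT difference under both treatments. These differences ran from -0.26 to -0.17 with dexamethasone and from -0.58 to -0.30 without it.

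**Figure D4:**
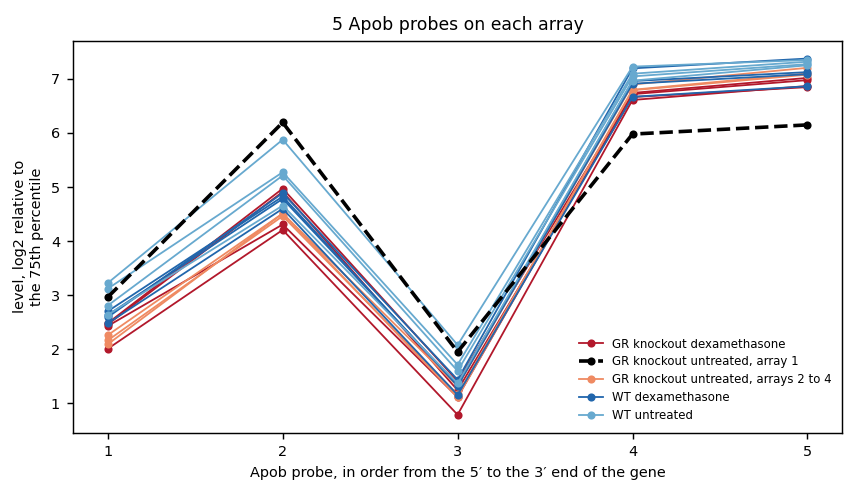
Level of the 5 Apob probes (log2 relative to the array's 75th percentile), ordered from the 5′ to the 3′ end, with a line per array coloured by group. Untreated knockout array 1 (dashed black) is the highest at the second probe, 6.19, and the lowest at the last, 6.15.

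Mttp, which loads lipid onto apolipoprotein B, was not called in any comparison. It read 1.91, 1.78, 2.08 and 2.14 in treated knockout livers, against 2.31, 2.07, 2.22 and 2.25 in treated WT livers. Without treatment it read 0.67, 1.86, 1.92 and 2.14 in knockout livers, against 2.27, 2.17, 2.25 and 2.03 in WT livers. Both pairs of groups overlapped, and untreated knockout array 1 was far the lowest. The difference was -0.23 with dexamethasone (interval -0.74 to 0.28, limma adjusted p = 0.529) and -0.53 without it (interval -1.04 to -0.02, adjusted p = 0.239), which was -0.20 without that array (adjusted p = 0.387).

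Apom binds sphingosine 1-phosphate on HDL. Its level was 5.10, 5.02, 6.22 and 6.46 in treated knockout livers, against 6.01, 6.13, 6.43 and 6.38 in treated WT livers. Arrays 1 and 2 of the treated knockout group lay about a log2 unit below arrays 3 and 4. Without treatment it was 4.12, 6.07, 5.71 and 5.75 in knockout livers, against 6.33, 6.38, 6.26 and 5.74 in WT livers. The differences of -0.54 with dexamethasone (interval -1.38 to 0.30, limma adjusted p = 0.354) and -0.77 without it (interval -1.61 to 0.08, adjusted p = 0.307) were not called, and the second was -0.33 without untreated knockout array 1 (adjusted p = 0.607).

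**Figure D5:**
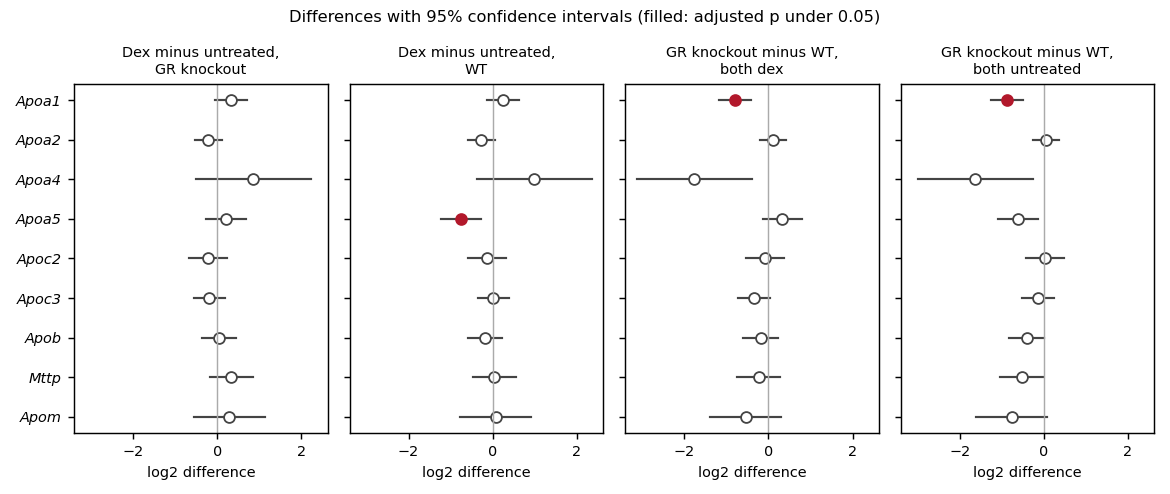
Difference between groups (log2) for 9 genes in 4 comparisons, with 95% confidence intervals from the limma fit. Filled points passed an adjusted p of 0.05: Apoa5 with dexamethasone in WT livers (-0.75), and Apoa1 in knockout against WT with (-0.80) and without dexamethasone (-0.88).

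Of the 9 genes that could be measured, 1 was called in each comparison of knockout with WT, and it was Apoa1 both times. With dexamethasone 22.4% of all genes were called (14.2% higher and 8.21% lower), and without it 2.82% (2.07% higher and 0.752% lower). Another gene, Apoa4, had an unadjusted p under 0.05 with dexamethasone, which made 2 of 9, and 5 of 9 had one without it (Apoa1, Apoa4, Apoa5, Apob and Mttp). Without untreated knockout array 1 only 2 of 9 had one in untreated livers (Apoa1 and Apoa5), and 3 had with any 1 untreated WT array left out. The share of all genes with an unadjusted p under 0.05 was not counted. Neither these counts nor those of the lists below can therefore be set against it. The median knockout minus WT difference of the 9 was -0.23 with dexamethasone, against 0.09 over all genes, and -0.53 without it, against 0.05 over all genes. The untreated median was -0.20 without untreated knockout array 1, against 0.02 over all genes, and the treated one was -0.28 to -0.16 with any 1 array left out and -0.40 under normexp. With all 16 arrays, 7 of the 9 values were negative both with and without dexamethasone.

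For dexamethasone, 0 of 9 were called in knockout livers by limma, and 0 had an unadjusted p under 0.05, where 3.63% of all genes were called (1.19% higher and 2.44% lower). In WT livers 1 of 9 was called, Apoa5, where 12% of all genes were (5.11% higher and 6.86% lower). The median change was 0.20 in knockout and 0.01 in WT livers, against -0.00 and -0.04 over all genes. Neither has a settled sign: with any 1 array left out, the knockout median ran from -0.10 (without untreated array 1) to 0.26 and the WT median from -0.09 to 0.07. The interaction was called for 0 of 9, with 1 at an unadjusted p under 0.05 (Apoa5), where 4.62% of all genes were called (1.93% higher and 2.69% lower). The comparisons share arrays, so their values are not independent.

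Other genes of lipoprotein biology were counted from lists chosen with earlier results of these data known. Of 7 other apolipoproteins tested, 2 were lower in treated knockout than in treated WT livers, as were 8.21% of all genes. Saa4, a constitutive serum amyloid carried on HDL, averaged 5.73 in treated knockout and 8.73 in treated WT livers (difference -3.01, SE 0.47, limma adjusted p = 5.84e-04, called in all 30 alternatives). In WT livers it rose by 2.55 with dexamethasone (adjusted p = 0.00344), and its interaction was -2.60 (adjusted p = 0.0384, called in 14 of 29 alternatives). Apoh, a phospholipid-binding plasma protein, fell by 0.45 (adjusted p = 0.00809). None of the 7 was called between untreated knockout and untreated WT livers, where limma gave 2 with an unadjusted p under 0.05. In that comparison 2.82% of all genes were called.

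Among 15 genes that assemble or export apolipoprotein B particles, 0 rose and 1 fell in treated knockout against treated WT livers: Mia2, a cargo receptor for secretion from the endoplasmic reticulum, by 0.68 (adjusted p = 0.00829). Its paralogue Mia3 fell by 0.44 with dexamethasone in WT livers (adjusted p = 0.0175), and the other 14 of the list were not called there. Among all genes 14.2% were higher and 8.21% lower in treated knockout against treated WT livers, and dexamethasone lowered 6.86% in WT livers. Without treatment 0 of the 15 assembly genes and 0 of the 10 receptor genes that follow were called between the genotypes by limma, with 2 and 3 at an unadjusted p under 0.05. Among all genes 2.82% were called there. Of 9 genes of HDL formation and plasma remodelling, 2 were lower in treated knockout than in treated WT livers (8.21% of all genes were). Angptl4, a secreted inhibitor of lipoprotein lipase, averaged 6.40 in treated knockout and 8.47 in treated WT livers (-2.06, SE 0.22, adjusted p = 5.59e-05), and 6.66 in untreated knockout and 7.94 in untreated WT livers (-1.29, SE 0.22, adjusted p = 0.00884). Abca1, which passes cholesterol to apolipoprotein A-I, fell by 0.64 (adjusted p = 0.0358, called in 23 of 30 alternatives and lost with the replicate block) and rose by 0.86 with dexamethasone in WT livers (adjusted p = 0.0135).

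Of 10 receptor and uptake genes tested, 1 was higher and 1 lower in treated knockout than in treated WT livers. Among all genes 14.2% were higher and 8.21% lower. Sdc1, a remnant-binding proteoglycan, averaged 4.46 in treated knockout and 3.51 in treated WT livers (0.95, SE 0.22, adjusted p = 0.00747). Scarb1, the HDL receptor, fell by 0.89 (adjusted p = 0.00288). Mylip, a ubiquitin ligase that limits lipoprotein uptake, rose with dexamethasone by 1.07 in knockout (adjusted p = 0.00334) and by 0.78 in WT livers (adjusted p = 0.00601), in all 30 alternatives each. Sdc1 rose by 0.84 in knockout livers (adjusted p = 0.0496), a call kept in 11 of 30 alternatives.

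Of 17 transcription factors known to act on apolipoprotein or lipid genes, 4 were higher and 3 lower in treated knockout than in treated WT livers, and 0 were called by limma without treatment, with 2 at an unadjusted p under 0.05. Over all genes 14.2% were higher and 8.21% lower with dexamethasone, and 2.82% were called without it. Hnf4a, a nuclear receptor that drives many apolipoprotein genes, averaged 3.41 in treated knockout and 4.55 in treated WT livers (-1.14, SE 0.17, adjusted p = 4.37e-04). Foxo1, which activates Apoc3 and Mttp, fell by 1.22 (adjusted p = 8.87e-04). Srebf1, the lipogenic regulator, was higher by 3.63 (adjusted p = 3.56e-04), and Mlxipl, the carbohydrate-response factor, by 0.91 (adjusted p = 0.0226, called in 26 of 30 alternatives). In WT livers dexamethasone lowered 3 of the 17 and raised 1: Srebf1 fell by 2.57, Mlxipl by 1.02 and Ppara, the fatty acid oxidation regulator, by 0.88 (adjusted p = 0.006, 0.0208 and 0.00961 in that order), while Hnf4a rose by 0.58 (adjusted p = 0.0374, called in 17 of 30 alternatives). Among all genes dexamethasone lowered 6.86% and raised 5.11% in WT livers. The interaction of Srebf1 was 2.86 (adjusted p = 0.0404, called in 15 of 29 alternatives).

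Of 12 genes beside the Apoa1 and Apoe clusters, 3 were lower and 0 higher in treated knockout than in treated WT livers, and 0 were called by limma without treatment, with 4 at an unadjusted p under 0.05. That treated count, all of it lower, is 25% of the list. Among all genes 22.4% were called, 8.21% lower and 14.2% higher. Without treatment 2.82% of all genes were called. Sik3, a kinase gene next to the Apoa1 cluster, averaged -0.28 in treated knockout and 1.38 in treated WT livers (-1.66, SE 0.23, adjusted p = 2.88e-04). It rose by 1.03 with dexamethasone in WT livers (adjusted p = 0.0105). Pafah1b2, a phospholipase subunit gene nearby, fell by 0.59 (adjusted p = 0.0117, but -0.21 and not called under normexp, and not called with the mean of its probes) and Nectin2, an adhesion molecule gene beside Apoe, by 0.46 (adjusted p = 0.0495, called in 12 of 30 alternatives). Relb, an NF-kappaB subunit gene, fell by 1.15 with dexamethasone in knockout (adjusted p = 0.038, called in 17 of 30 alternatives) and fell by 1.04 in WT livers (adjusted p = 0.0278, called in 24 of 30).

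Across the 16 arrays the genes most like Apoa1 by Pearson r were Serpina3k (r = 0.975) and Serpina3m (r = 0.964), secreted protease inhibitors, and Mug1 (r = 0.959), a plasma protease inhibitor. For Apoa5 they were Ilrun (r = 0.890), Mtpn (r = 0.852) and Serpinf2 (r = 0.789). These are descriptions over arrays that share group and scaling, and may share a slide.

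Some cell type markers moved with genotype, and their part in the results above was not tested. Of 3 adipocyte markers, Cfd alone was called, higher in knockout by 4.34 with dexamethasone (adjusted p = 0.00336) and by 5.93 without it (adjusted p = 0.00486), while Plin1 was not called and Adipoq did not pass the filter. The linear sum of the 3 levels was 9.82 to 230 in treated knockout, 115 to 160 in untreated knockout, 0.757 to 9.61 in treated WT and 1.39 to 3.68 in untreated WT livers. The brightest gene weighs most in such a sum, which does not show that the 3 moved together. Of 4 hepatocyte markers, 2 were lower in treated knockout than in treated WT livers (Cps1, -1.28, and Cyp2e1, -0.53) and 1 without treatment (Cps1, -0.89, a call kept in 15 of 30 alternatives), while Alb and Ttr were called in neither. Among all genes 14.2% were higher and 8.21% lower in knockout with dexamethasone, and 2.07% and 0.752% without it. The summed hepatocyte level overlapped between the groups, but only just between treated knockout (1289 to 1572.1) and treated WT livers (1571.7 to 1804). It was 1501 to 2211 in untreated knockout and 1416 to 2145 in untreated WT livers. Enterocytes are the other main source of Apob and Apoa4: of 5 enterocyte markers, Lct was above background on no array and the other 4 were called in no comparison. Shares of all genes called ran from 2.82% to 22.4% over the 5 comparisons.

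With dexamethasone, 2 of 4 B cell markers fell in both genotypes (Ms4a1 and Cd79b). Among all genes dexamethasone raised 1.19% and lowered 2.44% in knockout, and raised 5.11% and lowered 6.86% in WT livers. The summed B cell level was 0.395 to 0.545 in treated knockout, against 0.793 to 2.05 in untreated knockout livers, and 0.280 to 0.393 in treated WT, against 0.634 to 0.775 in untreated WT livers. Of 5 endothelial markers, Lyve1 rose (2.58 in knockout and 2.41 in WT livers) and Kdr fell in both genotypes (-1.03 and -1.13). Of 3 T and NK cell markers, Cd3e fell in knockout (-0.93) and Cd3g in WT livers (-0.78), and Cd3e was lower in treated knockout than in treated WT livers (-0.69). In that last comparison Cd79a (1.06), Cela2a (0.97) and Alas2 (0.49) were higher and Krt7 (-0.88) was lower, each the single gene called of its B cell, pancreatic acinar, red blood cell or cholangiocyte list. The shares of all genes higher and lower there were 14.2% and 8.21%. Sox9, of the cholangiocyte list, rose by 1.35 with dexamethasone in WT livers. None of 7 Kupffer cell and 5 stellate cell markers was called by limma in any comparison, where at most 4 and 1 of them had an unadjusted p under 0.05. Shares of all genes called ran from 2.82% to 22.4% over the 5 comparisons. The median Kupffer marker was 0.49 higher in knockout with and without dexamethasone, against 0.09 and 0.05 over all genes. Summed Kupffer levels were 49.1 to 90.1 in treated knockout and 33.0 to 58.9 in treated WT livers, which overlapped. Untreated they were 64.7 to 129 in knockout and 51.3 to 70.4 in WT livers, again overlapping.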

How the data were processed

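RNA from 16 liver samples was labelled with Cy3 and hybridised to Agilent whole mouse genome arrays. The deposited scanner files give each spot's background-subtracted intensity. The submitters' processing notes name Agilent Feature Extraction 9.5. Bright spots were rescaled from a low-gain scan, per the file headers (2.0% to 3.79% of spots). The other columns used are flags for saturated and outlying spots that the authors' scanner software set. Values of the deposited series table equal these intensities. Probe positions are on mm7.

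Here control spots were dropped, outlying spots set to missing, and each log2 intensity was taken minus the array's 75th percentile. The 26794 probes above background on 3 or more arrays of some group were kept. The brightest probe with no saturation stood for a gene. Limma 3.58.1 in R 4.3.3 fitted 4 group means (12 residual degrees of freedom), with two-sided tests and Benjamini-Hochberg adjustment. In simulated data with 200 of 18452 genes changed by a log2 of 1, limma recovered 63%, 53%, 48% and 58% in the 4 pairwise comparisons (dexamethasone in knockout, in WT, knockout against WT with and without it). Ratios used exact permutation tests in scipy 1.17.1. The number of arrays limits precision.

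The members and lists were chosen with earlier results of these data known. All 10 members are named, and from each list up to 4 called genes with the largest change. Some listed genes are not reported here and are left out of the list counts. Replicate numbers were not taken as pairs: over 24 pairs of groups and numbers the correlation of residuals was -0.19 to 0.35, and 10 passed 0.1. Alternatives were 13 planned settings, 16 single arrays left out and 1 added pair left out.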

Additional observations from a re-analysis of the deposited data

Results flagged for a closer look

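Outlying arrays were looked for in 60 groups of 4 arrays (15 probes of 9 members), where chance flags about 1 group in 20, and 5 were found. Apoa1 on untreated knockout array 4 was at 7.45, far below the 8.02 to 8.11 of the other 3 arrays. On untreated knockout array 1, Apob probe A_51_P413088 was at 6.19, above the 4.46 to 4.51 of the others, whereas probe A_51_P470542 was at 5.98, below 6.79 to 6.90, and probe A_52_P441070 at 6.15, below 7.08 to 7.20. Apob probe A_51_P436690 was at 2.01 on treated knockout array 3, below 2.43 to 2.48.

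The response to dexamethasone differed between knockout and WT livers by limma's interaction test for 2 genes of the related lists: Saa4 (-2.60) and Srebf1 (2.86). Both lost that call under normexp and with no filter on dim probes.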

How the results depend on the processing

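The number of members called was 0 in dexamethasone-treated against untreated knockout under every setting run. In WT livers it was 1, but 0 under normexp, with no filter on dim probes, with the mean of a gene's probes, with only the groups compared and with 2 arrays left out (untreated knockout 1 and untreated WT 4), and 0 to 1 with single arrays left out. For knockout against WT with dexamethasone it was 1, but 2 with array weights, with the replicate block and with those 2 arrays left out, and 1 to 2 with single arrays left out. Without dexamethasone it was 1, but 0 under normexp and with only the groups compared, and 0 to 1 with single arrays left out. The interaction count was 0, but 1 with array weights and with the replicate block. Over all genes the planned and added settings moved the counts of calls from 46 to 1804, 1202 to 5002, 2384 to 6676, 84 to 1586 and 102 to 2724 in the 5 comparisons (dexamethasone in knockout and in WT, knockout against WT with and without it, interaction). The cause of these changes was not tested. No called value of a member reversed, and 60 uncalled values changed sign. The block changed no other member's call. Bright probes were read from the low-gain scan, and Apoe was limited by saturation.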
